A study of Mus musculus with 2 samples.

Results

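The miR-34 and miR-449 family comprises 6 microRNA genes at 3 loci of the mouse genome: Mir34a, the pair Mir34b and Mir34c, and the trio Mir449a, Mir449b and Mir449c. They were taken by name from tables of microRNA sequencing of mouse kidney, and all 6 had a row among the 1973 annotated microRNA genes. Both libraries came from healthy B6NCrl mouse embryos at 16.5 days, with kidneys of males and females pooled, no treatment named, and replicate 2 made from 41 embryos. For replicate 1 the labels used here state no embryo number, and they give both libraries 1 donor record, so the spread between them may be partly technical. There is 1 group and no contrast between conditions.

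MicroRNAs repress messenger RNAs that pair with their seed, the stretch from base 2 to base 8 of the mature strand. The miR-34 genes are known as direct targets of the transcription factor p53, and their microRNAs repress cell cycle and survival genes. Mir34b, Mir34c and the Mir449 genes are also known from multiciliated cells of the airway, oviduct and efferent ducts and from male germ cells, where they are needed for the assembly of motile cilia and for sperm formation. Tubule cells of the mouse kidney carry primary cilia instead.

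The mature strands are shown because a common seed is what makes these genes a family. RefSeq entries on build GRCm38.p6 were found for 5 of the 6 genes. Capitals mark the seed in the 5p strands, printed 5′ to 3′.
miR-34a-5p: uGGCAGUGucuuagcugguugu
miR-34b-5p: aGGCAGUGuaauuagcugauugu
miR-449a-5p: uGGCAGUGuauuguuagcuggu
miR-449c-5p: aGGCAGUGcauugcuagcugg
For Mir34c the hairpin is shown, with capitals at the only occurrence of the same 7 letters, starting at base 14.
Mir34c hairpin: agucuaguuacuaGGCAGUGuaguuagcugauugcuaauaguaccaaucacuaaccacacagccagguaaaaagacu
Mir449b is named only.

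The seed GGCAGUG occurred at bases 2 to 8 of 4 of the 1679 distinct mature names in that table, and all 4 belong to the family. The strands differed more in what follows. miR-449a-5p and miR-449c-5p, from the same locus, were 4 edits apart, as were miR-34a-5p and miR-34b-5p from different chromosomes, while miR-34b-5p was 7 edits from either Mir449 strand. Beyond the seed the longest stretch common to all 4 strands was UAGCUG. After base 8 it is held by 11 of 1738 mature entries (0.633%), these 4 strands included. The longest stretch that any pair of member precursors shared was 11 nt, and no member shared 18 nt with any other of the 2202 annotated microRNA precursors. This bears on the counts, because reads that map to several places are not in the gene rows.

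On mm10, Mir34a (ENSMUSG00000065493) lies on the plus strand of chromosome 4 from 150068454 to 150068555, in an exon of Gm37795, a transcript that the annotation marks as to be experimentally checked. Mir34c (ENSMUSG00000065587; chromosome 9, 51103034 to 51103110) and Mir34b (ENSMUSG00000065492; 51103562 to 51103645) lie on the minus strand, 451 bases apart, opposite an intron of Btg4. The Mir449 genes lie on the plus strand of chromosome 13 in introns of Cdc20b, a gene of multiciliated cells, and in its direction. Mir449c (ENSMUSG00000076146) runs from 113035983 to 113036091, Mir449b (ENSMUSG00000078027) from 113037419 to 113037498 and Mir449a (ENSMUSG00000065575) from 113037534 to 113037624. Only 35 bases separate Mir449b from Mir449a. The near end of Mcidas, which encodes the multiciliated cell regulator multicilin, lies 37140 bases from Mir449a.

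Reads on the strand of the gene numbered 5317669 in replicate 1 and 7128703 in replicate 2, and levels are counts per 1000000 of them (CPM). A read spans a mature strand, so levels are per gene and not divided by length. The counts do not separate the arms of a hairpin, so a level may include strands without the seed shown. Counted per 100 nt of precursor the members kept the same order of mean CPM. For a count of 0 a limit of 3 reads was set, which equals 0.564 CPM in replicate 1 and 0.421 CPM in replicate 2. Intervals cover counting error only. Those on levels, shares and ratios within a library are exact 95% Poisson or Clopper-Pearson intervals, and those on log2 ratios between libraries and their differences are 95% normal approximations from the counting SE, unless called exact. Of 18 kidney and epithelial microRNA genes, 18 reached the detection limit of 1 CPM in each library, as did 387 of all 1973 genes. Together the 18 held 321126 and 302465 CPM. The 1 liver gene and 6 of 10 measured neuronal genes reached that limit too, so it does not check the tissue label. The family held 0.0625% (0.0603 to 0.0646) of the reads in replicate 1 and 0.0909% (0.0887 to 0.0932) in replicate 2.

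Mir34c led the family. It had 2417 reads in replicate 1 and 3659 in replicate 2, or 455 CPM (437 to 473) and 513 CPM (497 to 530). It ranked 103 of the 1973 genes by mean CPM, 484 ± 41.5 (SD, n = 2), between Mir148a at 503 ± 55.2 CPM and Mir320 at 482 ± 62.5 CPM. Its interval in each library lay above that of every other member. Mir34b, which lies next to it, had 96 and 174 reads, or 18.1 CPM (14.6 to 22.0) and 24.4 CPM (20.9 to 28.3). Its neighbours in level were Mir6240 (21.5 ± 15.3 CPM) and Mir208b (20.5 ± 4.99 CPM), and its rank was 241. In replicate 2, 1 read lay opposite Mir34b, the only one opposite any member.

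Mir34a, the member best known as a p53 target, had 591 and 889 reads. These are 111 CPM (102 to 120.5) in replicate 1 and 125 CPM (117 to 133) in replicate 2, with rank 168 by a mean of 118 ± 9.59 CPM. Mir665 (118.5 ± 18.9 CPM) and Mirlet7c-1 (117 ± 25.0 CPM) stood next to it. Mirlet7c-1 shares 18 nt with another microRNA gene, so its level is uncertain.

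Mir449a did not keep a level. It had 214 reads in replicate 1 and 1751 in replicate 2, or 40.2 CPM (35.0 to 46.0) and 246 CPM (234 to 257). In replicate 1 it lay below Mir34a and above Mir34b, and in replicate 2 it lay above both, with intervals apart in each case. Its mean of 143 ± 145 CPM placed it beside Mir24-2 (145 ± 1.47 CPM) and Mirlet7c-2 (142 ± 35.2 CPM), whose levels are uncertain because of shared sequence, but its SD was as large as its mean.

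The other Mir449 genes were near the limit of detection. Mir449b had 3 and 6 reads, or 0.564 CPM (0.116 to 1.65) and 0.842 CPM (0.309 to 1.83). Mir449c had 0 and 2 reads. In replicate 1 its set limit was 0.564 CPM and its exact interval ran from 0 to 0.694 CPM. In replicate 2 it stood at 0.281 CPM (0.0340 to 1.01). Neither reached 1 CPM in both libraries, and their intervals overlap.

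**Figure D1:**
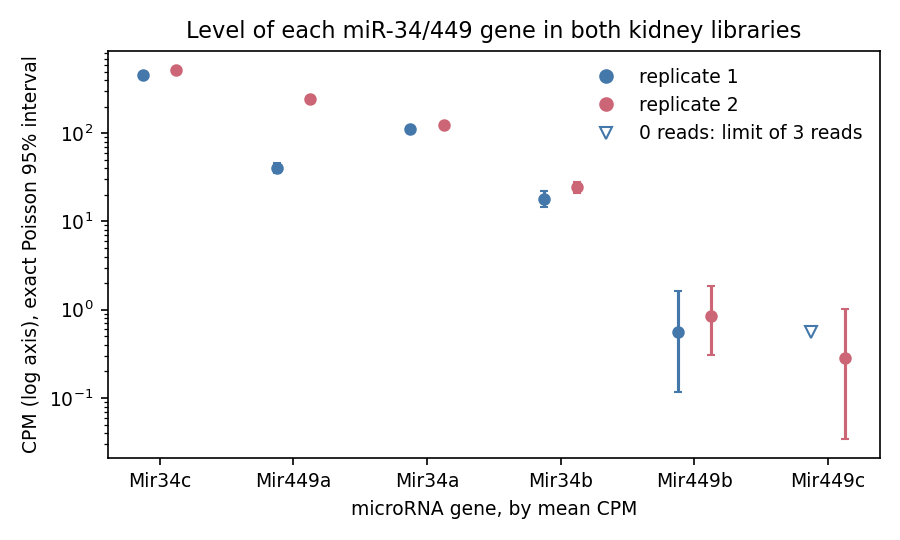
Level of each member in CPM on a log axis, with members in order of mean CPM on the horizontal axis. Points are libraries and bars exact 95% Poisson intervals. The triangle is the limit of 3 reads for Mir449c, which had 0 reads in replicate 1. Mir449a is the member whose points stand farthest apart among the 4 that were detected, at 40.2 and 246 CPM.

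By mean CPM the order was Mir34c, Mir449a, Mir34a, Mir34b, Mir449b and Mir449c. Mir34c stood 3.39 times above Mir449a, and Mir34a stood 5.55 times above Mir34b, with no overlap between the libraries of the genes compared. Mir34b stood 30.2 times above Mir449b, also without overlap. Mir449a and Mir34a overlapped, so their order is not resolved by these libraries. Mir449b and Mir449c did not overlap in CPM, but their counting intervals did. Flipping signs over 2 libraries gives an exact p of 0.5 at the least, so these orders carry no test.

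The locus of Mir34b and Mir34c gave most of the family reads in both libraries, with 75.7% (74.2 to 77.1) in replicate 1 and 59.1% (57.9 to 60.3) in replicate 2. Mir34a gave 17.8% (16.5 to 19.1) and 13.7% (12.9 to 14.6). The Mir449 locus gave 6.53% (5.72 to 7.43) and 27.1% (26.1 to 28.2). The intervals of each locus were apart between libraries. In CPM, the Mir34b and Mir34c locus stood at 473 and 538 and the Mir449 locus at 40.8 and 247. The reads of the Mir449 locus were nearly all from Mir449a, 214 of 217 and 1751 of 1759.

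**Figure D2:**
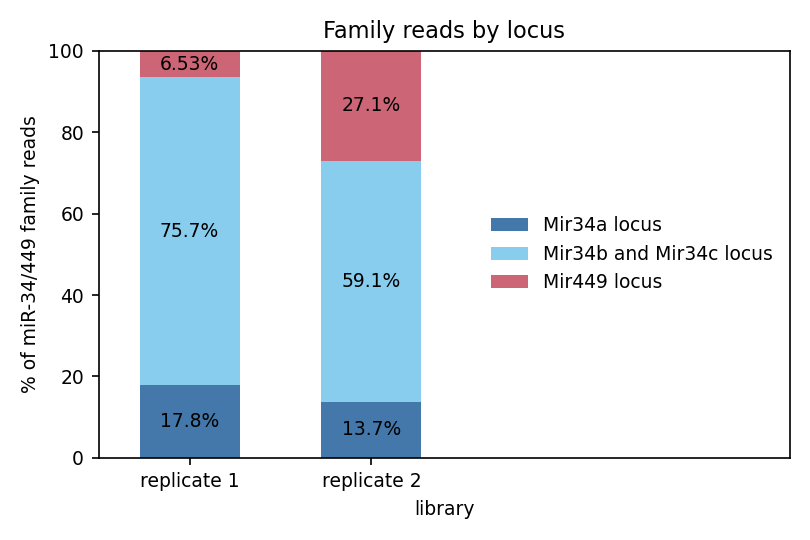
Share of the family reads from each locus, in percent, stacked to 100 for each library. The Mir449 locus takes 6.53% in replicate 1 and 27.1% in replicate 2, and both other shares are smaller in replicate 2.

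The libraries were next compared gene by gene with edgeR's TMM scaling. Each of the 455 genes with at least 10 reads summed was tested with a two-sided exact binomial test on reads, with Benjamini-Hochberg adjustment over all of them. This test takes in counting error only and compares these libraries, not conditions. Of the members, 4 could be tested. Mir449a passed, 5.53-fold higher in replicate 2, with a log2 ratio of 2.47 (2.26 to 2.67; counting SE 0.10) and an adjusted exact p of 1.43e-183. None of the miR-34 genes passed. Mir34c had a log2 ratio of 0.03 (-0.04 to 0.11; adjusted exact p = 0.564), Mir34a 0.02 (-0.13 to 0.17; adjusted exact p = 0.868) and Mir34b 0.29 (-0.07 to 0.65; adjusted exact p = 0.243). Summed, the miR-34 genes had 584 and 662 CPM and a log2 ratio of 0.04 with a counting SE of 0.03.

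Of all tested genes, 33.6% passed this test in either direction and 15.8% passed it as higher in replicate 2, so 1 passing member of 4 is near the background as a count. By size, the ratio of Mir449a was among the largest. A ratio of 2-fold or more was found for 10.8% of the tested genes and for 1 of the 4 tested members. Among the 181 tested genes whose mean reached 100 CPM, Mir449a alone reached 2-fold in either direction. Its mean passed that cut only through replicate 2, since it stood at 40.2 CPM in replicate 1. Among genes with at least 50 reads summed, 9 were 2-fold apart, Mir449a among them. Over all 454 tested genes with reads in both libraries the ratio of Mir449a ranked 4, that of Mir34b 93, that of Mir34c 211 and that of Mir34a 217.

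An exact test in edgeR that allows for spread between replicates was run as well, with a biological coefficient of variation (BCV) set to 0.2. It called 0.659% of the tested genes, Mir449a among them (adjusted exact p = 1.2e-05), and no other member. The BCV estimated from these libraries treated as replicates was 0.142 over all tested genes and 0.148 on the trend at the level of Mir449a, and this estimate includes Mir449a itself. With a BCV of 0.4, Mir449a did not pass (adjusted exact p = 1, unadjusted p = 0.00528). Scaling to library totals shifted every log2 ratio by 0.14 against TMM, and 78.8% of passing genes were then higher in replicate 2 against 47.1% with TMM. Under that scaling Mir34c (log2 ratio 0.18, adjusted exact p = 1.48e-05) and Mir34b (0.44, adjusted exact p = 0.0463) passed too.

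**Figure D3:**
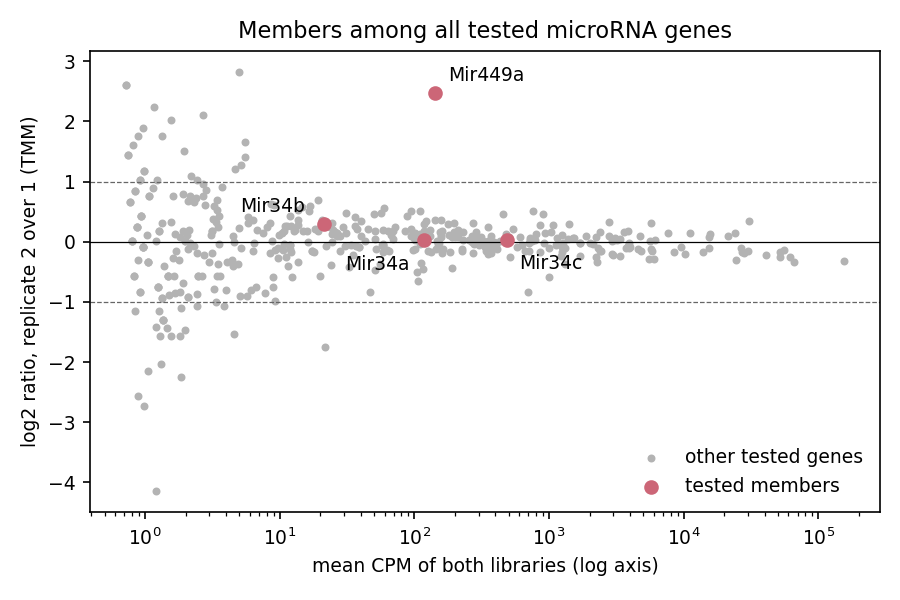
Log2 ratio of replicate 2 over replicate 1 against mean CPM on a log axis. Each grey point is a tested gene, red points are the 4 tested members and dashed lines mark 2-fold. Mir449a lies at 2.47 and is apart from genes of like mean CPM, while Mir34a, Mir34b and Mir34c lie between 0.02 and 0.29.

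Ratios of reads between members within a library do not depend on scaling. How evenly different microRNAs were captured was not tested, so these need not be ratios of molecules. Mir34c stood 4.09 times (3.74 to 4.48) above Mir34a in replicate 1 and 4.12 times (3.82 to 4.43) in replicate 2, although they lie on different chromosomes. The log2 difference between libraries was 0.01 (-0.16 to 0.18). Mir34c stood 25.2 times (20.5 to 31.2) above Mir34b in replicate 1 and 21.03 times (18.1 to 24.6) in replicate 2, a log2 difference of -0.26 (-0.63 to 0.11). Mir34a stood 6.16 and 5.11 times above Mir34b, with a log2 difference of -0.27 (-0.66 to 0.12). All 3 intervals include 0, and they leave room for a shift of Mir34b of up to 0.66 log2 against Mir34a.

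The ratios that involve Mir449a moved. Mir449a stood at 0.0885 times (0.0766 to 0.102) the reads of Mir34c in replicate 1 and at 0.479 times (0.452 to 0.507) in replicate 2, a log2 difference of 2.43 (2.22 to 2.65). Against Mir34a it went from 0.362 times (0.308 to 0.424) to 1.97 times (1.82 to 2.14), a log2 difference of 2.44 (2.19 to 2.70). Against Mir34b the log2 difference was 2.17 (1.76 to 2.59). Mir449a thus had more reads than Mir34a in 1 library only.

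Within the Mir449 locus, Mir449a stood 71.3 times (24.1 to 349) above Mir449b in replicate 1 and 292 times (134 to 796) in replicate 2. The log2 difference was 2.03, with an exact conditional 95% interval from -0.61 to 4.27. Mir449b, with a log2 ratio between libraries of 0.43 (exact interval -1.79 to 3.06), had too few reads to be tested, and with 3 and 6 reads a difference from Mir449a was not detectable at this depth.

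**Figure D4:**
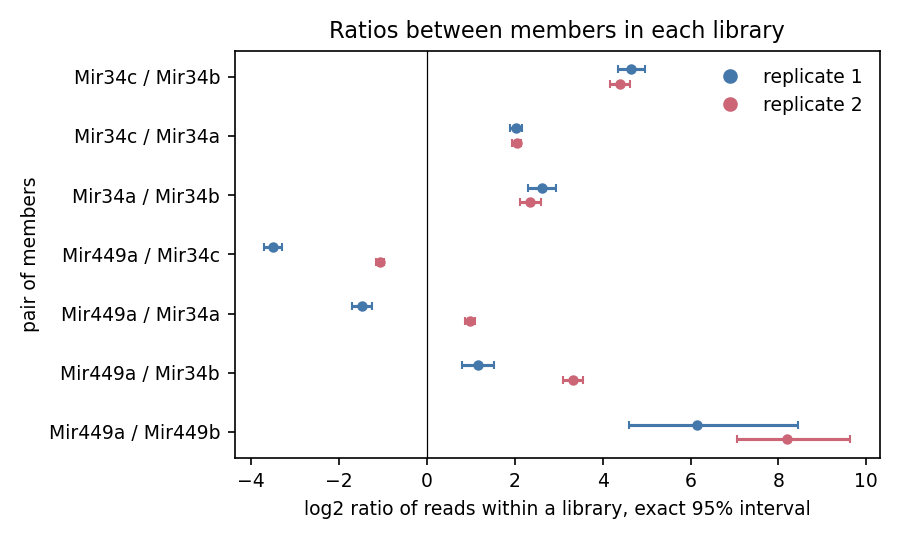
Log2 ratio of reads between pairs of members inside each library, with exact 95% intervals. For the 3 pairs of miR-34 genes no shift between libraries was resolved, with log2 differences from -0.27 to 0.01. The 3 pairs of Mir449a with miR-34 genes lie 2.17 to 2.44 higher in replicate 2.

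The genes whose log2 ratio lay nearest to that of Mir449a over the 2 libraries were few-read genes. Mir291b and Mir3098 each had 1 and 9 reads, and each differed from Mir449a by 0.14 log2. Mir5130 had 2 and 14 reads and differed by 0.23. None of these 3 passed the binomial test. Mir547, of an X-linked cluster known from testis, had 5 and 32 reads (log2 ratio 2.11, adjusted exact p = 0.00252), and Mir202, known from the gonads, had 6 and 63 (2.83, adjusted exact p = 5.18e-08). Mir291b and Mir3098 share 18 nt with other microRNA genes, so their counts are uncertain.

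In pooled tissue, more cells of a type and more RNA per cell cannot be told apart, so marker lists are given beside Mir449a. Of 19 measured gonad and adrenal genes, 5 were detected, and Mir465b-1, Mir465c-1, Mir743b, Mir883a and Mir883b had no read in either library. Of the 19, 3 share 18 nt with another microRNA gene. Their summed level was 43.6 CPM in replicate 1 and 55.1 CPM in replicate 2. The log2 ratio of the sum was 0.19 (counting SE 0.12), and -0.02 without Mir202, left out after values were seen. Mir202 and Mir547 were higher in replicate 2, from 1.13 to 8.84 and from 0.940 to 4.49 CPM. Mir741 was lower, from 11.8 to 6.59 CPM (log2 ratio -0.99, adjusted exact p = 0.00173). Mir383 (20.7 and 28.5 CPM), Mir184 (4.89 and 3.09 CPM) and Mir743 (1.504 and 0.281 CPM) did not pass.

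Germ and pluripotent cell genes were summed to 19.0 CPM in replicate 1 and 36.1 CPM in replicate 2, with 5 of 11 measured genes detected and Mir367 without a read in either. Of the 9 tested genes of the list, 3 passed as higher in replicate 2 and none as lower. Over all tested genes, 15.8% passed as higher. The count takes each gene as separate, and whether genes of the list vary together was not tested. The 3 were Mir294 (2.44 and 8.56 CPM), Mir293 (2.82 and 7.58 CPM) and Mir302c, which had 0 and 10 reads. Mir302a (5.08 and 5.19 CPM), Mir302d (4.33 and 5.61 CPM), Mir302b (2.82 and 3.51 CPM) and Mir291a (0.940 and 0.982 CPM) did not pass. Mir295 and Mir291b, with 13 and 10 reads in all, were more than 2-fold apart without passing. The median log2 ratio of the list was 0.76 over the 8 genes with reads in both libraries, against 0.02 over all tested genes. The list was chosen with earlier results of these data known, so this median is not independent support. Some of the 8 genes had few reads, such as Mir291a with 5 and 7. Mir292 was listed only under symbols that matched no row. With a mean of 2.83 CPM and a log2 ratio of 0.87, it is left out of the counts, sums and median of this list. Of the 11, 5 share 18 nt with other genes. The gain of Mir449a between libraries was 205.4 CPM, against 17.1 CPM for this whole list and 11.5 CPM for the gonad and adrenal list, and the part of either list in that gain was not tested.

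The other lists did not hold genes that were 2-fold higher in replicate 2. In the cluster of ciliated and sensory epithelium, Mir182 was higher (2126 and 2628 CPM, log2 ratio 0.16) and Mir183 (2429 and 2135 CPM, -0.33) and Mir96 (864 and 853 CPM, -0.16) were lower. Liver Mir122 stood at 210.1 and 171 CPM (-0.44). Of 6 tested neuronal genes, Mir137 was lower (118 and 92.2 CPM, -0.50), while Mir132 (349 and 380.0 CPM), Mir128-1 (61.1 and 73.2 CPM) and Mir212 (36.1 and 38.0 CPM) did not pass. Mir9-3, with 17 and 12 reads, had a log2 ratio of -1.07 and did not pass. Of the 10 measured neuronal genes 7 share 18 nt with another microRNA gene, and of the 18 kidney and epithelial genes 7 do, so these lists are uncertain. Of 18 kidney and epithelial genes, 4 were higher and 10 lower, against 72 higher and 81 lower of all 455 tested genes. The median log2 ratio of the kidney and epithelial list was -0.12, which became 0.02 with library totals. Mir10a, Mir10b, Mir196b and Mir30e headed that list, at -0.32, -0.25, -0.31 and 0.10.

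MicroRNAs linked to p53 outside the family were listed to stand beside Mir34a. Of 16 listed genes 15 were measured and 14 tested. Of the 14, 3 were higher in replicate 2 and 3 lower, against 72 higher and 81 lower of all 455 tested genes. None of the 14 was 2-fold apart. The median log2 ratio was 0.06, against 0.02 over all tested genes. Mir143, whose processing p53 is known to promote, led the list at 25256 and 35454 CPM (0.35). Mir200c, an epithelial microRNA, stood at 4528 and 4576 CPM (-0.13). Mir22 (3776 and 4107 CPM, -0.02) and Mir15a, which represses cell cycle genes (2859 and 3203 CPM, 0.02), did not pass. The sum of the list had a log2 ratio of 0.21, which was -0.04 without Mir143. Of the 15 genes, 6 share 18 nt with another microRNA gene, so their counts are uncertain.

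**Figure D5:**
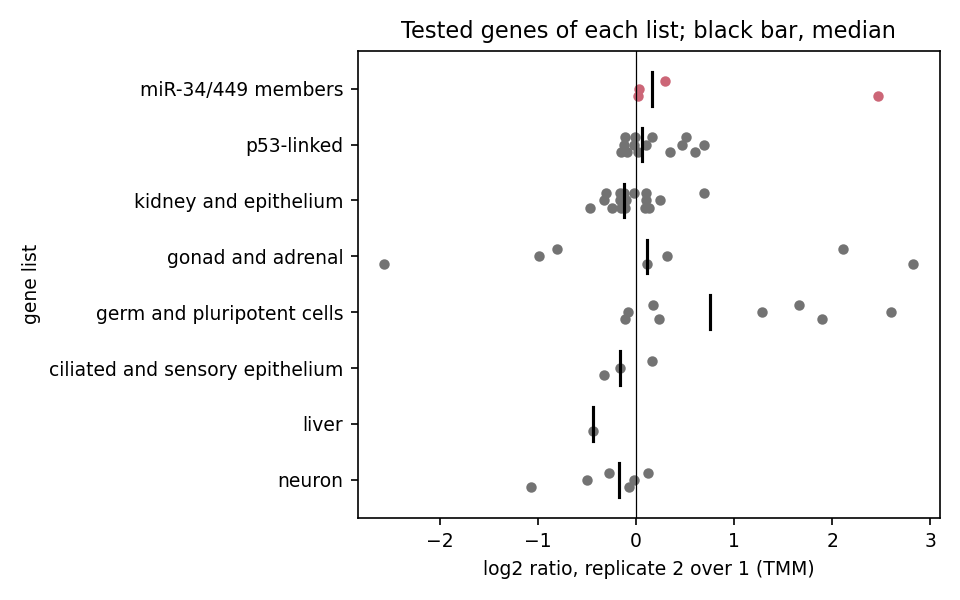
Log2 ratio of replicate 2 over replicate 1 for the tested genes of each list, with the median as a black bar. Mir449a, at 2.47, is the rightmost of the red points, and genes above 1 otherwise occur in the gonad and adrenal list and in the germ and pluripotent list.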

How the data were processed

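The authors deposited raw counts of reads per microRNA gene for each library, on assembly mm10 with annotation M4 per the file headers of the accompanying text. The sources used here name no aligner, counter or trimming. Column 2 equals the sum of columns 3 and 4 in all 1973 rows, and column 3, the strand of the gene, was used. The 4 rows that name no gene held 55.2% and 51.5% of reads, of which reads mapping to several places were 28.0% and 25.3% of all reads, and were left out. Symbols, positions and precursors came from GENCODE M21 (1894 rows matched), and mature sequences from RefSeq.

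The members and lists were chosen with earlier results of these data known. Named genes are the members, the tested genes next to each detected member in mean CPM, the 5 tested genes nearest to Mir449a in log2 ratio, and for each list its 4 highest members and any 2-fold apart. Other genes were named after values were seen.

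Tests ran on genes with at least 10 reads summed, called at an adjusted p under 0.05. TMM factors (edgeR 4.0.16, R 4.3.3) were 0.952 and 1.05. With 1 library a side, no quasi-likelihood fit in edgeR was possible. Genes with a library at 0 were judged 2-fold at a floor of 3 reads per library. The binomial test (scipy 1.17.1) was tested on simulated counts that varied by counting error only, so calls due to spread between replicates were not covered. Alternatives were library totals, DESeq2 1.42.0 size factors, other read minimums, both strands, other denominators and BCV values of 0.2 and 0.4.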

Additional observations from a re-analysis of the deposited data

How the results depend on the processing

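Mir449a kept its direction in every alternative run, with log2 ratios from 2.45 to 2.61, and passed in all of them except the edgeR exact test with a BCV of 0.4 (2.47, adjusted exact p = 1). That test called 0 members and 0 of 455 genes, with 6 at an unadjusted p under 0.05. The edgeR exact test with a BCV of 0.2 called 3 genes, against 153 with the binomial test. With library totals 3 members passed instead of 1. The p53-linked list had a median log2 ratio of 0.21 with library totals and 0.0431 with DESeq2 size factors, and the kidney list turned to 0.0222 with library totals. With at least 50 reads summed 9 genes were 2-fold apart, against 49. Relative to all reads of the table, the family stood at 360.1 CPM. Leaving out a library moved the summed level between 625 and 909 CPM and the share of the Mir449 locus between 6.53% and 27.1%. Chosen after seeing the data, leaving out Mir202 turned the summed gonad list from 0.194 to -0.0198, and leaving out Mir143 turned the summed p53-linked list to -0.0370. Depth limits Mir449b and Mir449c, and the number of libraries limits the rest.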
